A study of Mus musculus with 3 samples.

Results

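Th, Ddc, Slc6a3, Slc18a2 and Gch1, the genes of dopamine synthesis and transport, were followed across all clusters of sorted olfactory bulb nuclei to locate the nuclei in which they come together. The members were chosen by name, and all 5 of them were found among the 31055 genes of the count tables. The nuclei came from the olfactory bulbs of 3 adult C57Bl/6 mice, 1 library per mouse, which form a single group with no other genotype or treatment to set against it. All 3 had been injected with retroAAV-CAG-H2B-GFP, an adeno-associated virus taken up at axon endings, into the anterior olfactory nucleus (AON) as well as the piriform cortex (PCx), and nuclei positive for GFP were collected by fluorescence-activated nuclei sorting before 10x Genomics single-nucleus RNA sequencing. The sort was aimed at mitral and tufted cells, the neurons that send axons out of the bulb, and the CAG promoter that drives the GFP is active in many cell types. Numbers of nuclei per cluster are therefore numbers of labelled nuclei, not of cells in the tissue.

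Tyrosine hydroxylase (Th) turns tyrosine into L-DOPA, the rate-limiting step of dopamine synthesis, and DOPA decarboxylase (Ddc) turns L-DOPA into dopamine. GTP cyclohydrolase 1 (Gch1) starts the synthesis of tetrahydrobiopterin (BH4), the cofactor that Th needs, the vesicular monoamine transporter encoded by Slc18a2 loads dopamine into synaptic vesicles, and the dopamine transporter encoded by Slc6a3 returns it from outside the cell. In the adult bulb dopamine is made by a class of periglomerular interneurons, which surround the glomeruli, also make GABA, and adjust their Th to olfactory input.

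The genes lie on 5 chromosomes of GRCm38 and all are annotated as protein coding in GENCODE. Th (ENSMUSG00000000214) occupies chr7:142892752-142931128 on the minus strand, Ddc (ENSMUSG00000020182) chr11:11814101-11898144 on the minus strand, and Gch1 (ENSMUSG00000037580) chr14:47153895-47189413 on the minus strand. Slc6a3 (ENSMUSG00000021609) occupies chr13:73536747-73578672 and Slc18a2 (ENSMUSG00000025094) chr19:59260896-59296012, both on the plus strand. Promoter windows from 250 bases before to 20 bases after the annotated start were read from RefSeq (GRCm38.p6) for all 5 genes, Ddc having 2 starts. The RefSeq start of Th lies inside the longer GENCODE model. The cyclic AMP response element, written TGACGTCA and identical on both strands, was searched together with its first 5 bases, TGACG, a search chosen after the windows had been read. TGACGTCA occurred in the windows of Th, from base -45 to base -38, and of Slc18a2, from base -4 to base 4 across the start, and TGACG without the rest occurred in that of Gch1, from base -88 to base -84. Of 32851 promoter windows of the same length, 1.73% held TGACGTCA and 19.4% held TGACG on either strand. Neither was found in the windows of Slc6a3 and Ddc. The TATA box TATAAA and the CCAAT box were searched on both strands too, and each occurred in windows of Ddc and Gch1 and in 12.9% and 35.4% of all windows. These matches describe letters and not binding. The TATAAA and CCAAT matches are not marked below, and the windows of Ddc are not shown. The windows with TGACGTCA or TGACG (chr7:142899976-142900245 minus, chr19:59260628-59260897 plus, chr14:47189394-47189663 minus) and that of Slc6a3 (chr13:73536497-73536766 plus), the member whose counts were most concentrated in 1 cluster, are given 5′ to 3′ with these bases in capitals.
Th: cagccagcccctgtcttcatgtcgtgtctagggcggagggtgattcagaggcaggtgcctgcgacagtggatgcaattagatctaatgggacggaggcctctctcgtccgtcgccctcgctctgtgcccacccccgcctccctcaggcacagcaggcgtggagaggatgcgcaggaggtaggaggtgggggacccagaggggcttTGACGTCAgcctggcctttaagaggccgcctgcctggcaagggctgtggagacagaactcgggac
Slc18a2: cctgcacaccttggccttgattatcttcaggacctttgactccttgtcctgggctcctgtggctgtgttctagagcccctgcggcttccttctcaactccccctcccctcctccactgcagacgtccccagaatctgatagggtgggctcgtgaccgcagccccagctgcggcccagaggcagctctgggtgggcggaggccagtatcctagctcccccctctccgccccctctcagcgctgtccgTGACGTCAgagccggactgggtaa
Gch1: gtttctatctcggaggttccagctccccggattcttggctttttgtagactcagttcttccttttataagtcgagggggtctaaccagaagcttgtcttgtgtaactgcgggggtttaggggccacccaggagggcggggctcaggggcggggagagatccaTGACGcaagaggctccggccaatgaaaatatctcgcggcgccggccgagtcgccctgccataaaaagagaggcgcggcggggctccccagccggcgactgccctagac
Slc6a3: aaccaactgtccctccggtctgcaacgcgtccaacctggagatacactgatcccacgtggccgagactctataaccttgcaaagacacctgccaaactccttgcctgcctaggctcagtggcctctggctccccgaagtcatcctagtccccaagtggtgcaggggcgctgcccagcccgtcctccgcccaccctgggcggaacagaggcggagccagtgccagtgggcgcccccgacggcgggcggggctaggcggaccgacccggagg

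The deposited annotation retained 5845, 21105 and 4753 nuclei of mice 1, 2 and 3, 31703 in all, with medians of 7940, 8420 and 10568 UMIs per nucleus, a UMI being a molecular barcode that counts each captured RNA once, and it placed them in 22 clusters without cell type names. Between 8 and 39 retained barcodes were shared by any pair of libraries. Levels are given as CPM, the counts per 1e6, that is the UMIs of a gene per 1e6 UMIs of all genes in the nuclei of a cluster, summed within a mouse and averaged over the 3 mice with their SD. Cluster 21, with 9 nuclei in mouse 1, was left out of the orders of levels, leaving 21 clusters. The clusters had been formed on the same counts, so levels by cluster are descriptions and carry no test. UMI counts favour genes that are well captured, so the levels of different genes are not set against each other.

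Th was highest in cluster 6, at 293, 183 and 192 CPM in mice 1, 2 and 3, a mean of 222 ± 61.2 CPM (SD, n = 3). The cluster held 1411 nuclei, 309, 915 and 187 by mouse, which were 5.29%, 4.34% and 3.93% of each mouse's nuclei. At least 1 Th UMI was present in 73.6% of its nuclei (95% exact binomial interval 71.2 to 75.9, counting error only). It held 33.1% of all Th UMIs. The highest Th counts were also there: 24 of the 25 nuclei with 10 or more Th UMIs lay in cluster 6, of which 17 came from mouse 1, 5 from mouse 2 and 2 from mouse 3, and the other lay in cluster 0.

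Slc6a3 and Slc18a2, the genes of the plasma membrane and vesicular transporters, were also highest in cluster 6. Slc6a3 reached 34.2, 19.2 and 14.4 CPM in mice 1, 2 and 3 (22.6 ± 10.3, SD, n = 3), and 68.2% of all its UMIs lay in the cluster, the largest share of the 5 genes. Slc18a2 reached 42.4, 36.2 and 30.6 CPM (36.4 ± 5.91), with 18.5% of its UMIs, the smallest share. For both genes the 3 values in cluster 6 lay above every value of the cluster next in order. Mouse 1 was the highest for both and mouse 3 the lowest.

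Gch1, the cofactor gene, was highest in cluster 6 at 15.7, 13.6 and 19.1 CPM (16.1 ± 2.79), where 43.5% of its UMIs lay. Its values there overlapped those of cluster 18 by mouse (11.9, 9.66 and 14.3 CPM), which rested on 12 UMIs in all, although cluster 6 was the higher in 3 of 3 mice. Ddc stood at 53.7, 46.4 and 37.4 CPM in cluster 6 (45.8 ± 8.18), with 58.4% of its UMIs, but its order was led by the oligodendrocyte-like cluster 16. There Ddc measured 38.3, 30.6 and 85.8 CPM (51.6 ± 29.9) on 75 UMIs, a range that encloses the values of cluster 6. Cluster 16 was below cluster 6 in mice 1 and 2, and its lead came from mouse 3, with 21 nuclei there. Among nuclei with 1500 or more genes cluster 6 led instead, at 46.0 against 43.6 CPM. In cluster 6 all 5 members thus ranked first or second of 21 clusters.

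**Figure D1:**
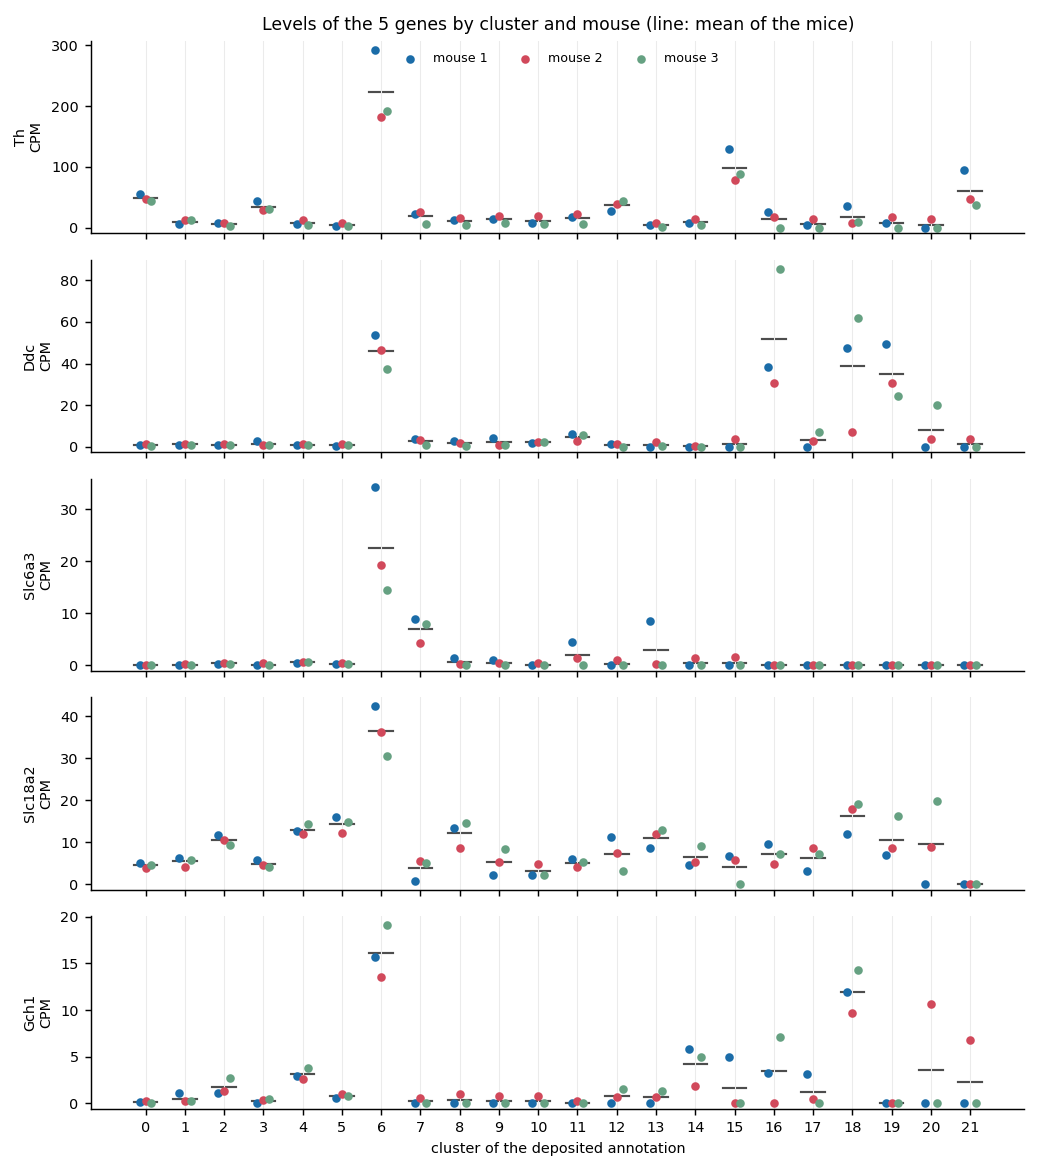
Level of each of the 5 genes (CPM, linear axis from near 0, 1 panel per gene) in each of the 22 annotated clusters, with 1 point per mouse and a line at the mean of the 3 mice. Cluster 6 stands apart for Th, Slc6a3 and Slc18a2, while the range of Ddc overlaps in clusters 16, 18 and 19 and that of Gch1 in cluster 18.

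The identity of cluster 6 was read from its other genes. None of the members was among its 10 leading genes by ratio to the other clusters, which were Trh, Prss12, Hgf, Stac, Tyrp1, Prkg2, Kcnc2, Angpt1, Gm4128 and Whrn. Th took place 17, Slc6a3 44, Ddc 61, Slc18a2 101 and Gch1 107 of 31055 genes. The added CPM lowers the ratio most for genes with low levels. Without it the fold over the mean of the other clusters was 10.6 for Th and 29.4 for Slc6a3. It was 6.07 for Ddc, 4.74 for Slc18a2 and 9.08 for Gch1. Trh, which encodes the precursor of thyrotropin-releasing hormone, measured 784 ± 185 CPM against 58.2 ± 0.24 in the next cluster, cluster 7. Of 4 GABA genes, Gad2, which makes GABA, had its highest mean in cluster 6 (798 ± 167 CPM), and its values overlapped those of cluster 15 (642 ± 111 CPM). Gad1, which makes GABA too, and Slc32a1, which loads it into vesicles, each ranked 5, at 617 ± 109 and 221 ± 37.7 CPM. The vesicular glutamate transporters Slc17a6 and Slc17a7 stood at 3.07 ± 1.22 and 17.7 ± 2.07 CPM against 254 ± 12.1 and 386 ± 85.4 where each was highest. The other such transporter, Slc17a8, stood at 2.30 ± 1.64 CPM in cluster 6, its highest mean of the 21 clusters, with 1.78 ± 3.08 CPM in cluster 20. Calb2, the marker of another periglomerular class, was 66.1 ± 27.0 CPM in cluster 6 and ranked 17 of 21, while Calb1, which marks another periglomerular class again, ranked 3 at 8.26 ± 1.00 CPM. Because its leading genes in the order with the added CPM are not the dopamine genes, cluster 6 is called here by its number.

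Glial markers and those of mitral and tufted cells were low in cluster 6. The 5 oligodendrocyte markers summed to 65.3 CPM against 21422 in cluster 16, the 5 astrocyte markers to 63.1 against 4840 in cluster 9, the 4 microglia markers to 34.8 against 2675 in cluster 20, and the 6 mitral and tufted cell markers to 94.2 against 1001 in cluster 2. Tmem119, a defining microglia gene, had no UMI in cluster 6, and Tbx21, which marks mitral and tufted cells, was at 0.99 ± 0.49 CPM. The 5 immature neuron markers were not low in the same way. They summed to 498 CPM against 834 in cluster 7, mostly from Dcx, which ranked 5 at 382 ± 44.3 CPM, and Cd24a ranked 2 at 11.97 ± 9.55 CPM. Sox4 ranked 16 at 75.3 ± 12.1 CPM, Sox11 ranked 12 at 22.9 ± 2.004 CPM and Igfbpl1 ranked 10 at 6.17 ± 2.57 CPM.

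Outside cluster 6 the members parted. Th was next highest in cluster 15, whose 301 nuclei were led by Vip, Pnoc and Sst. It measured 129, 78.6 and 87.4 CPM there by mouse (98.5 ± 27.2), below cluster 6 in each mouse. Ddc (1.21 ± 2.09 CPM) and Slc6a3 (0.52 ± 0.90 CPM, 3 UMIs) were near 0 in the same nuclei, and Slc18a2 was at 4.11 ± 3.59 CPM. Cluster 0, the largest with 7681 nuclei and led by Adamts19, Myo3b and Ano3, followed for Th with 55.3, 47.8 and 44.0 CPM (49.0 ± 5.79). Because of its size it held 31.6% of all Th UMIs, nearly as many as cluster 6. Clusters 12 (26.9, 39.0 and 43.4 CPM) and 3 (43.2, 28.4 and 30.5 CPM) came next and overlapped each other.

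Th was found at low levels in every cluster, including the glia-like ones. In the microglia-like cluster 20, 4.11% of nuclei had a Th UMI at a median of 3405 UMIs per nucleus, and in the astrocyte-like cluster 9 it was 7.75% at 5211 UMIs. To compare shares at equal depth, each nucleus was thinned to 3000 UMIs, and those with fewer, 1154 of 31703, were left out. This kept 1390 of 1411 nuclei in cluster 6, 975 of 1136 in cluster 9, 887 of 972 in cluster 11 and 91 of 146 in cluster 20. The share with a Th UMI was then 44.7 ± 5.27% in cluster 6 (SD, n = 3), 25.2 ± 6.19% in cluster 15, 11.2 ± 1.00% in cluster 0, 8.35 ± 4.34% in cluster 12 and 7.85 ± 2.41% in cluster 3. It was 0.95 ± 1.65% in cluster 20, 3.23 ± 0.91% in cluster 9 and 3.95 ± 2.69% in the ensheathing-glia-like cluster 11. Th shares of that size or below were not read as expression. In the 16 ordered clusters in which Th averaged under 20 CPM, mouse 2 was the highest in 14, and the barcodes of mouse 2 that the annotation did not retain held 91.4 CPM of Th against 32.7 and 28.8 in mice 1 and 3. The part of free RNA in the low Th levels was not tested.

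Of the 20 pairs of neighbours in the order of Th, 4 did not overlap over the mice, namely 6 and 15, 15 and 0, 0 and 12, and 3 and 7. Each of the other members had 1 such pair of 20. These were 6 and 7 for Slc6a3, 6 and 18 for Slc18a2, 18 and 14 for Gch1, and 19 and 20 for Ddc. The remaining neighbours overlapped in their ranges over the 3 mice, which does not compare them within a mouse.

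Ddc had ranges over the mice that overlapped cluster 6 in 3 further clusters. Beside cluster 16 it was found in the oligodendrocyte precursor-like cluster 19 at 49.2, 30.6 and 24.5 CPM (34.8 ± 12.9) and in cluster 18 at 47.6, 6.90 and 62.1 CPM (38.9 ± 28.6). Cluster 18 is left unnamed and is led by Ly6c1, Slc6a20a and Dcn. Cluster 19 was below cluster 6 in 3 of 3 mice, and clusters 16 and 18 were each below it in 2 of 3. Th was at 14.5 ± 13.1, 8.05 ± 8.61 and 17.4 ± 15.9 CPM in clusters 16, 19 and 18, beside means of 4.74 to 15.1 CPM in the glia-like clusters 9, 11 and 20. In each of the remaining clusters of the order Ddc averaged 7.83 CPM or less. Thinned to 3000 UMIs, 13.5 ± 1.19% of nuclei in cluster 6, 10.1 ± 5.73% in cluster 16, 7.48 ± 2.81% in cluster 19, 7.19 ± 4.46% in cluster 18 and 0.78 ± 0.33% in cluster 7 had a Ddc UMI.

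An antisense gene, 1700042O10Rik (chr11:11868123-11885321, plus strand), lies wholly inside Ddc. Over the 21 clusters its level was the most similar to Ddc of all 14548 genes compared (Pearson r = 0.99 of log2(CPM + 5)), and it stood at 35.0 CPM in cluster 6, 24.9 in cluster 19, 22.8 in cluster 16 and 21.0 in cluster 18. Whether the counting used strand is not given in the sources used here, so reads of Ddc and of this gene cannot be told apart with certainty. Slc18a2 shares 524 bases with the antisense gene Gm29261.

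Slc6a3 outside cluster 6 was found chiefly in cluster 7, led by Pde5a, Kcnmb2 and Nppa and the highest for Calb2. It measured 8.85, 4.25 and 7.87 CPM there (6.99 ± 2.43), below every value of cluster 6, and 2.14% of its nuclei carried a UMI of the gene (95% exact binomial interval 1.45 to 3.04). In cluster 13 the mean of 2.96 ± 4.83 CPM came from mouse 1, at 8.53 CPM against 0.35 and 0, where the cluster held 23 nuclei. No Slc6a3 UMI was seen in clusters 16 to 20. The limit of 3 counts allows up to 0.87 CPM in cluster 17 and up to 3.64 CPM in cluster 20.

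The UMIs of Slc18a2 were the least concentrated of the 5 in cluster 6. After cluster 6 it stood at 16.3 ± 3.86 CPM in cluster 18, 14.4 ± 1.91 in cluster 5, 13.0 ± 1.2 in cluster 4, 12.2 ± 3.09 in cluster 8 and 11.1 ± 2.31 in cluster 13, and the lowest of the order was 3.12 CPM in cluster 10. Clusters 4, 5 and 13 belong to the putative projection neuron clusters that the annotation divided further. Gch1 was low in most clusters, at 4.20 ± 2.05 CPM in cluster 14 and 3.11 ± 0.56 in cluster 4, with no UMI among the 151 nuclei of cluster 19 (up to 2.20 CPM by the limit of 3 counts).

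Within the projection neuron clusters 2, 4, 5, 13 and 14, which the annotation splits into 10 subclusters, 4 of the 5 genes, all but Gch1, had their highest means in 1 small group. Subcluster 9 held 89 nuclei, 9, 72 and 8 by mouse, and was left out of the order for its size. Th stood there at 66.2, 72.5 and 26.8 CPM (55.2 ± 24.8), and Slc6a3 at 12.4, 14.5 and 0 CPM (8.97 ± 7.84). Slc18a2, at 16.5, 18.5 and 13.4 CPM, overlapped other subclusters, and Gch1, at 4.14, 6.59 and 0 CPM, had a lower mean than in subclusters 3, 6 and 8. Ddc was seen there in mouse 2 only, at 28.3 CPM, the other mice having 9 and 8 nuclei. Its nuclei came from clusters 2 (33), 4 (27), 5 (13), 13 (9) and 14 (7), whose median depths were 16531, 12416, 19020, 18005 and 12079 UMIs. The median depth of subcluster 9 was 19506 UMIs, beside 20781 in subcluster 1, 20122 in subcluster 2 and 5915 to 18005 in the rest. By mouse it was 29191, 18242.5 and 29185 UMIs, the highest of the subclusters in mice 1 and 3. No doublet caller was run here, and the part of doublets in subcluster 9 was not tested. The study describes a group of putative periglomerular cells among its subclusters, beside those of projection neurons, and the annotation does not say which number it has. It reports 9 groups in all, where the annotation has 10 subclusters. The study ran its network analysis after removing the periglomerular nuclei, and the nuclei absent from that analysis far outnumber the 89 of subcluster 9. Subcluster 9 is therefore not taken here as that group.

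Among the other subclusters Th was highest in subcluster 2, at 17.6, 14.1 and 11.2 CPM (14.3 ± 3.23), above every value of its neighbour in the order, subcluster 6, but not above that of mouse 2 in subcluster 8, and its means lay between 2.69 and 7.19 CPM in the rest. Thinned to 3000 UMIs, 3.84 ± 2.76% of the nuclei of subcluster 2 had a Th UMI, a share of the size not read as expression in the glia-like clusters. Slc18a2 ranged from 6.41 to 15.2 CPM over subclusters 0 to 8 and Gch1 from 0.56 to 4.87 CPM. In the glia-like clusters 9, 11 and 16 Slc18a2 stood at 5.21 ± 3.10, 5.15 ± 0.93 and 7.18 ± 2.39 CPM. It stood at 10.6 ± 4.97 and 9.61 ± 9.99 CPM in the glia-like clusters 19 and 20, on 12 and 9 UMIs. A mean of 4.21 ± 7.08 CPM of Slc6a3 in subcluster 5 came from mouse 1, at 12.4 CPM against 0.24 and 0.

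**Figure D2:**
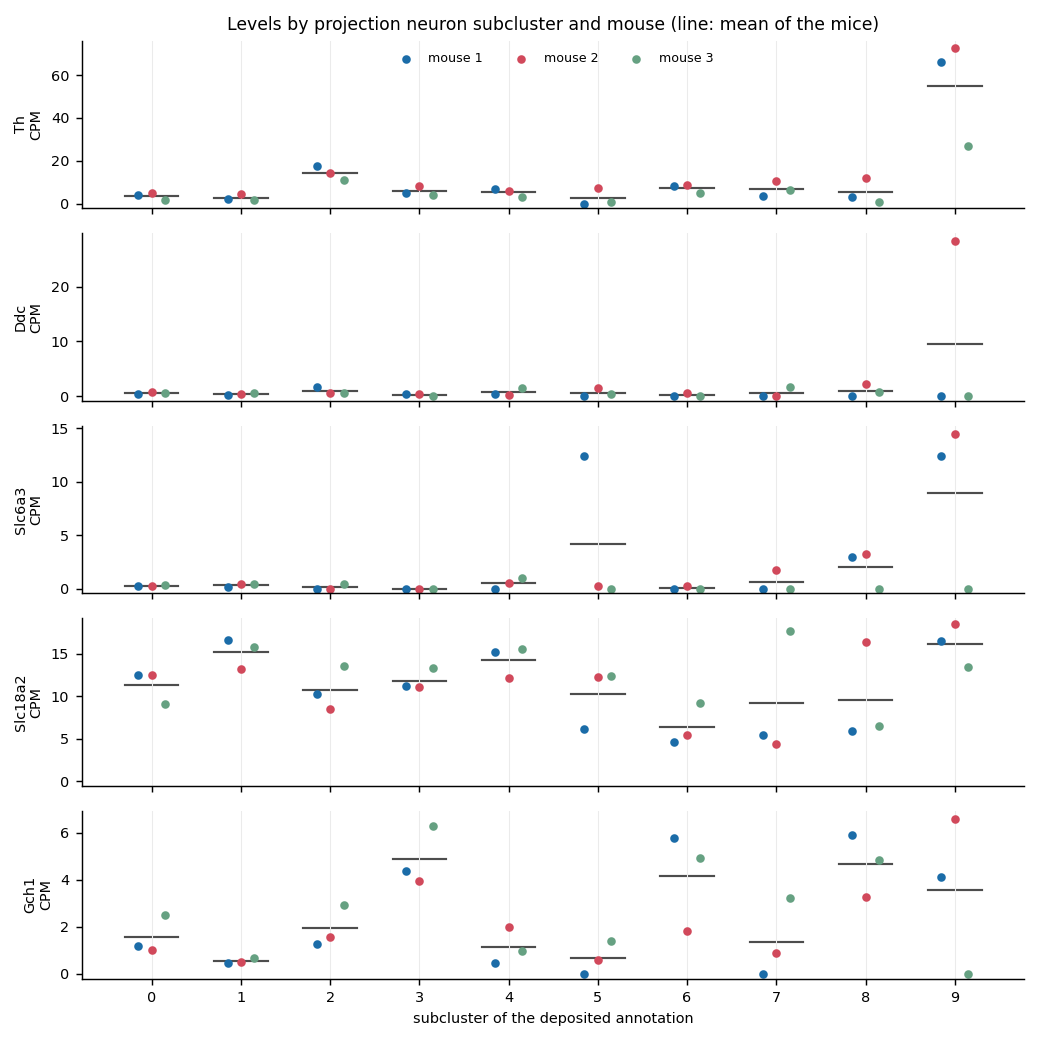
Level of each of the 5 genes (CPM, 1 panel per gene) in the 10 subclusters into which the annotation splits the putative projection neuron clusters, with 1 point per mouse and a line at the mean of the 3 mice. Subcluster 9, with 9, 72 and 8 nuclei by mouse, is the highest for Th. UMIs of Slc18a2 were counted in every subcluster, which is not read as expression.

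Single nuclei were next asked for several members at once. At least 1 UMI of 3 or more of the 5 genes was found in 234 nuclei, 53, 158 and 23 by mouse, and 211 of them (51, 138 and 22) lay in cluster 6. By mouse 96.2%, 87.3% and 95.7% of such nuclei were in the cluster, a mean of 93.1 ± 4.97% (SD, n = 3). They made up 16.5%, 15.1% and 11.8% of the cluster. The 23 nuclei outside were scattered over clusters 1, 2, 4, 5, 10, 11, 13, 14 and 17, with 6 in cluster 4, 5 in cluster 5 and 4 in cluster 2. All 5 genes were seen together in 2 nuclei, both in cluster 6.

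Depth moved with this count. In cluster 6 the nuclei with 3 or more members had median UMIs of 10592, 10913 and 17404 by mouse against 8828, 9338 and 10222 in the rest. After thinning to 3000 UMIs 34 nuclei still carried 3 or more members, 11, 23 and 0 by mouse, and all 34 lay in cluster 6. With the limit set at 2 members, 1070 nuclei were counted, of which 685 lay in cluster 6.

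**Figure D3:**
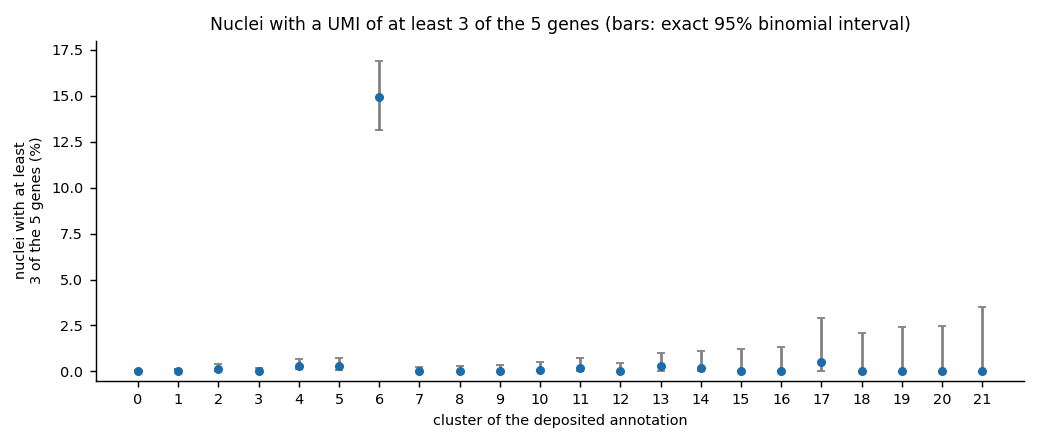
Share of the nuclei of each annotated cluster (percent, linear axis) with a UMI of at least 3 of the 5 genes, pooled over the mice, with bars for the exact 95% binomial interval, which covers counting error only. Cluster 6 stands at 14.95% (13.1 to 16.9), while the other clusters lie near 0.

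The rest of the dopamine pathway was described in cluster 6 from lists of genes. Of the 6 genes of BH4 synthesis and recycling, 2 were highest there, Gchfr (1.95 ± 0.63 CPM), whose product binds the enzyme made by Gch1, and Pcbd1 (4.26 ± 3.39 CPM), both at low levels that overlapped the next cluster's spread. Pts, the enzyme after Gch1, ranked 7 at 22.5 ± 3.46 CPM and Qdpr, which recycles BH4, ranked 10 at 22.7 ± 1.34 CPM. None of the 5 genes of dopamine breakdown was highest there. Maoa, which oxidises monoamines, stood at 18.6 ± 8.26 CPM (rank 11), Maob at 1.55 ± 1.42 and Aldh1a1 at 2.12 ± 1.47 CPM.

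Of 5 dopamine receptor genes, Drd2, the inhibitory receptor that also serves as autoreceptor of dopamine neurons, was highest in cluster 6, at 27.2 ± 2.83 CPM against 4.69 ± 2.57 in cluster 17. The other 4 receptors were each under 1 CPM. Dbh and Pnmt, which carry dopamine on to noradrenaline and adrenaline, stood at 0.14 CPM and at 0, and the noradrenaline and serotonin transporter genes Slc6a2 and Slc6a4 were under 1 CPM as well. Of the 8 genes listed for the other monoamines, 2 were above that, Tph2, which starts serotonin synthesis, at 2.29 ± 0.93 CPM, and Slc18a1, the other vesicular monoamine transporter gene, at 2.09 ± 2.29 CPM.

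Of 11 transcription factors of bulb dopaminergic neurons, 3 were highest in cluster 6. These were Etv1 (664 ± 91.4 CPM, with cluster 7 at 598 ± 74.8), Nr4a2 (147 ± 22.0 CPM, with cluster 0 at 51.7 ± 19.4) and Sall3 (323 ± 44.9 CPM, with cluster 9 at 109 ± 17.7). Pax6 ranked second at 312 ± 50.2 CPM beside 321 ± 69.3 in cluster 12. The 5 Dlx and Meis genes Dlx1, Dlx2, Dlx5, Dlx6 and Meis2 ranked between 6 and 9, and Nr2f1 ranked 4. All 7 factors of midbrain dopaminergic neurons, among them Pitx3, Lmx1a, Foxa2 and En1, were under 1 CPM.

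The genes most like each member over the 21 clusters were found by Pearson r of log2(CPM + 5), as a description in which all points share the 3 libraries and the clustering. Th was most like Gm39117 (r = 0.92), a long noncoding RNA gene at chr7:142837271-142857582, 35170 bases from Th on the same strand, and then Gm27239 (0.79) and Gad2 (0.78). Slc6a3 was most like Slc30a3, a zinc transporter of synaptic vesicles (0.92), Scn7a (0.88), Clec18a (0.87), Gm34609 (0.86) and Tyrp1 (0.83). Slc18a2 was most like Hmcn2 (0.80), and Gch1 was most like Gm17473 (0.83) and Bmp2 (0.78), with Slc18a2 the fourth (0.72). Among the members themselves r was lowest for Th and Slc18a2 (0.16) and for Th and Ddc (0.25), and highest for Slc18a2 and Gch1 (0.72). Th and Slc6a3 gave 0.56.

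Whether the members go together within cluster 6 was tested by splitting its nuclei by 1 gene and following the others. Nuclei with at least 1 Th UMI (225, 673 and 140 by mouse) were summed within each mouse and compared with those with none (84, 242 and 47), with Th itself left out, by edgeR's quasi-likelihood test over 11486 genes. A gene was called at a Benjamini-Hochberg adjusted p under 0.05 and a log2 fold change beyond 1. This main fit did not pair the sums with and without Th of the same mouse, although both come from 1 animal. A fit with the mouse as a block, which pairs them, was an alternative. The nuclei with Th were deeper, at median UMIs of 10037, 10239 and 10974 against 6006, 8125 and 8490. A nucleus with no Th UMI may still have held Th RNA that was not captured.

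None of the other members was called in the Th split. Slc6a3 measured 38.6, 19.6 and 15.98 CPM in nuclei with Th and 16.2, 17.8 and 8.37 CPM in those without, higher with Th in 3 of 3 mice although the groups overlap. Its log2 fold change was 0.68 ± 0.36 (SE, edgeR adjusted p = 1.00). Ddc measured 54.2, 47.3 and 32.5 CPM against 51.7, 43.6 and 56.5 (log2 fold change -0.10 ± 0.22). Slc18a2, at 41.7, 35.8 and 29.8 against 45.2, 37.8 and 33.5 CPM, gave -0.09 ± 0.21 and was lower with Th in 3 of 3 mice, and Gch1, at 14.8, 14.9 and 19.2 against 19.4, 8.90 and 18.8 CPM, gave 0.26 ± 0.36 (edgeR adjusted p = 1.00 for each). Of all genes tested 13.0% were higher and 15.5% lower with Th in 3 of 3 mice. The median of the 4 members was 0.09, against 0.00 over all genes tested. The signs of the Ddc, Slc18a2 and Gch1 values change with the depth or the mice used.

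The reciprocal split by Slc6a3 (58, 126 and 25 nuclei with a UMI, 251, 789 and 162 without, 11026 genes tested) allowed Th to be tested. Here the nuclei with the split gene were no deeper, at median UMIs of 8740, 8316 and 10323 against 9430, 9822 and 10631. Th measured 447, 265 and 213 CPM in nuclei with Slc6a3 and 257, 172 and 189 CPM in those without. It was thus higher in 3 of 3 mice, with a log2 fold change of 0.57 ± 0.22 (SE, edgeR adjusted p = 0.62). With the mouse as a block, which compares the nuclei within each animal, it was 0.55 ± 0.13 (edgeR adjusted p = 0.013), past the p threshold and short of the fold threshold. In that fit 13 of the 11026 genes were called higher and 25 lower on both thresholds. The share of all genes past the p threshold alone is not given, so Th is not set apart from them by this value. Ddc (72.0, 46.2 and 35.0 against 49.5, 46.5 and 37.7 CPM; 0.19 ± 0.23) and Slc18a2 (40.2, 56.3 and 28.7 against 42.9, 33.6 and 30.9 CPM; 0.31 ± 0.25) were not called.

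Gch1 went the other way in value, at 8.37, 8.40 and 15.9 CPM in nuclei with Slc6a3 against 17.4, 14.3 and 19.6 in those without, lower in 3 of 3 mice, with a log2 fold change of -0.80 ± 0.39 (edgeR adjusted p = 0.75). Of all genes tested 17.5% were higher and 13.5% lower with Slc6a3 in 3 of 3 mice. In the split by Gch1, Slc6a3 stood at 10.1, 4.40 and 5.14 CPM in nuclei with Gch1 and at 38.6, 21.5 and 16.3 CPM in those without. The groups did not overlap, and the log2 fold change of -2.01 ± 0.48 did not pass the test over all genes (edgeR adjusted p = 0.13, 0.136% of genes called lower). With the mouse as a block, a fit added for this split after its values had been seen, it was -1.97 ± 0.42 and called lower (edgeR adjusted p = 0.0063), as were 0.335% of the genes tested. The blocked call was lost without mouse 1 (edgeR adjusted p = 0.068) or mouse 2 (0.32). The other members were also lower with Gch1 in 3 of 3 mice and not called. Ddc gave -0.40 ± 0.23 and Slc18a2 -0.49 ± 0.25, both without overlap, and Th gave -0.33 ± 0.19 (edgeR adjusted p = 0.69, 0.63 and 0.68). Of all genes tested in this split 24.8% were lower with Gch1 in 3 of 3 mice and 10% were lower without overlap. The nuclei with Gch1 were the deeper ones, at median UMIs of 12977, 14522 and 18001 against 8851, 9172 and 9725. Thinned to 3000 UMIs, 13, 22 and 5 nuclei had a Gch1 UMI, and Slc6a3 did not pass the filter on low counts, so the part of depth in its difference was not tested. In that fit Ddc took the other sign (0.93 ± 0.53, edgeR adjusted p = 0.81). Both splits draw on the same nuclei and are not independent of each other. In the splits by Ddc and by Slc18a2 no member was called, and the log2 fold changes lay between -0.12 and 0.13.

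**Figure D4:**
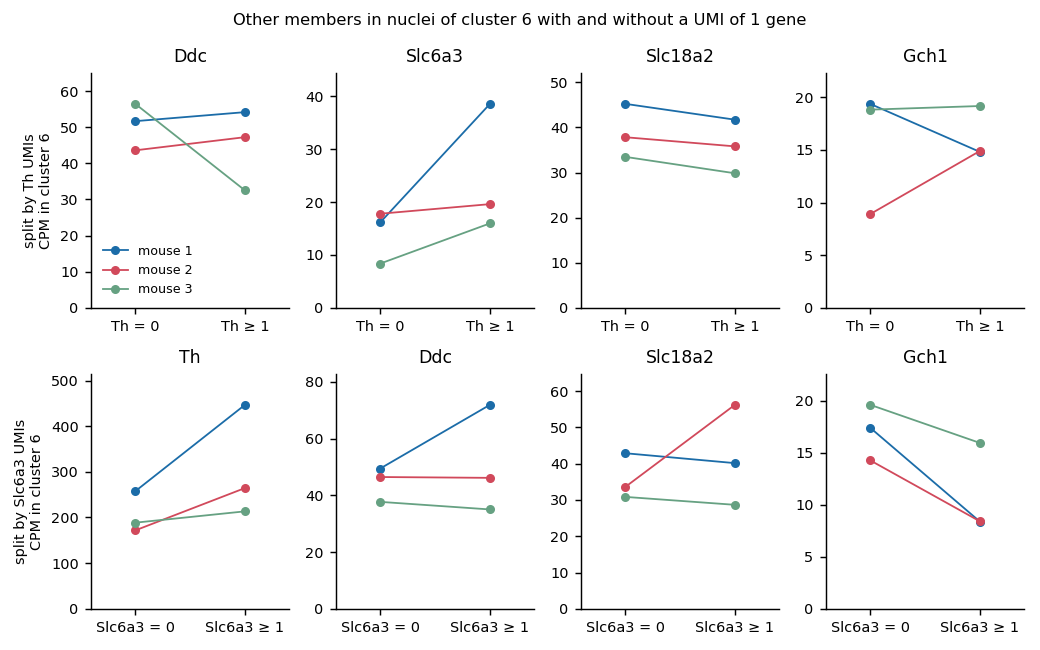
Level (CPM, linear axes from 0) of the 4 other members in nuclei of cluster 6 with 0 UMIs and with at least 1 UMI of Th (top) or Slc6a3 (bottom), with 1 line per mouse. Slc6a3 is higher with Th, and Th higher with Slc6a3, in each of the 3 mice, while Ddc and Slc18a2 show no common direction with Slc6a3.

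Over all genes, no gene was called higher in the nuclei with Th (0%) and 3 were called lower (0.0261%). At an unadjusted p under 0.05 there were 179 genes higher and 191 lower, and DESeq2 called 0 higher and 9 lower. With the mouse as a block edgeR called 1 higher and 12 lower, which included the 3. Thsd7b, the gene of a thrombospondin-domain protein, measured 77.6, 106 and 82.6 CPM with Th and 498, 494 and 310 CPM without, a log2 fold change of -2.26 ± 0.19 (edgeR adjusted p = 5.5e-05). Nos1, which makes nitric oxide in neurons, measured 17.9, 14.7 and 13.8 against 67.8, 59.2 and 37.7 CPM (-1.84 ± 0.24, edgeR adjusted p = 0.0084). Tpbg, a membrane glycoprotein gene, measured 14.03, 19.6 and 18.6 against 75.9, 48.1 and 92.1 CPM (-1.91 ± 0.27, edgeR adjusted p = 0.013).

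The 3 calls depended on the mice used. Without mouse 1 none was called and the edgeR adjusted p of Thsd7b was 0.12. Without mouse 2 only 1 was called, and without mouse 3 Tpbg was lost (edgeR adjusted p = 0.12). After thinning to 3000 UMIs 1 of the 3 calls was left. The 3 genes are higher in other clusters than in cluster 6. Thsd7b reached 1119 CPM in cluster 8 against 160 in cluster 6, Tpbg 221 CPM in cluster 3 against 28.5, and Nos1 86.8 CPM in cluster 7 against 23.6.

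In the split by Slc6a3 no gene was called higher (0%) and 1 was called lower (0.00907%). This was Cdh13, a cadherin gene, at 131, 138 and 201 CPM in nuclei with Slc6a3 and 571, 471 and 523 CPM in those without, a log2 fold change of -1.80 ± 0.18 (edgeR adjusted p = 0.0011). Without mouse 1 it lost its call (edgeR adjusted p = 0.30). At an unadjusted p under 0.05 there were 374 genes higher and 366 lower, and DESeq2 called 9 and 16.

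With the mouse as a block 13 genes were called higher and 25 lower in the nuclei with Slc6a3, of 11026 tested. Those higher included Nts, the neurotensin gene (43.5, 13.4 and 12.7 against 8.50, 3.71 and 3.43 CPM), Bmp6, a growth factor gene (70.3, 51.2 and 127 against 20.1, 24.8 and 24.5 CPM), and Fibcd1 (177, 115 and 82.8 against 59.1, 48.8 and 49.96 CPM). Hmcn2, the gene most like Slc18a2 over clusters, was among them too (23.4, 25.2 and 41.4 against 12.8, 7.52 and 5.88 CPM). Those lower included Cdh13, Tpbg (1.67, 9.24 and 12.7 against 31.7, 28.2 and 36.7 CPM), Nell1 (60.2, 31.9 and 35.0 against 101, 98.2 and 107 CPM) and St8sia4 (72.0, 87.3 and 82.8 against 245, 147 and 204 CPM). The genes named from the blocked fit were picked after their values were seen.

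**Figure D5:**
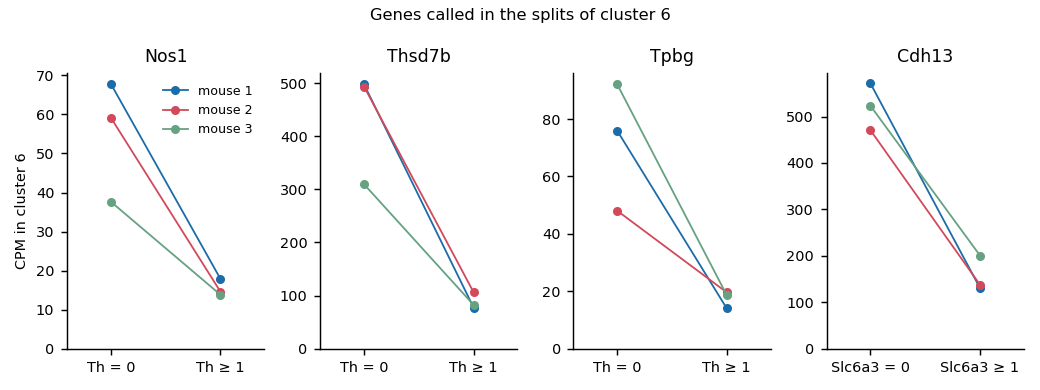
Level (CPM, linear axes from 0) of the genes called in the splits of cluster 6, in nuclei with 0 UMIs and with at least 1 UMI of the split gene, with 1 line per mouse. Nos1, Thsd7b and Tpbg are lower in nuclei with Th, and Cdh13 lower in nuclei with Slc6a3, in each of the 3 mice.

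The pathway lists held no call in either split. Of the 11 factors of bulb dopaminergic neurons all were tested, with medians of -0.10 in the Th split and 0.26 in the Slc6a3 split, where the medians of all genes were 0.00 and 0.02. Among all genes of the lists, the markers of other cell types included, the smallest unadjusted p of the Th split was that of Calb1, the marker of another periglomerular class, at 5.85, 6.11 and 5.33 CPM with Th and 24.2, 13.4 and 16.7 CPM without (-1.52 ± 0.38, edgeR adjusted p = 0.65). Its groups did not overlap, as was so for 5.20% of all genes in that direction, and its part in the split was not tested. The largest value among the factors was that of Nr2f1 in the Slc6a3 split, 0.93 ± 0.22 (edgeR adjusted p = 0.17). Of the BH4 genes 3 passed the filter on low counts, with medians of -0.26 in the Th split and -0.03 in the Slc6a3 split. Summed oligodendrocyte markers in cluster 6 lay between 43.7 and 76.3 CPM in the nuclei with Th and between 23.0 and 115 CPM in those without. Summed mitral and tufted cell markers lay between 88.5 and 102 and between 77.4 and 110 CPM. In the Slc6a3 split the summed immature neuron markers were 526 to 746 CPM with Slc6a3 and 440 to 519 CPM without, the microglia markers 35.0 to 51.9 against 31.7 to 34.8 CPM, and the mitral and tufted cell markers 92.0 to 140.1 against 90.1 to 91.7 CPM, none of which overlapped. The summed inhibitory neuron, astrocyte, oligodendrocyte, oligodendrocyte precursor, ensheathing glia and endothelial markers overlapped in the Slc6a3 split. Of all single genes tested in it, 6.60% were higher with Slc6a3 without overlap, and no such share was computed for sums of several genes. The part of these markers in the splits was not tested.

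The Th split was described, without a test, in the 9 other clusters that held at least 10 nuclei with and 10 without Th in every mouse. In none of them was Ddc or Slc6a3 higher with Th in all 3 mice. In clusters 0, 1, 3, 8, 12 and 15 a mouse had no Slc6a3 UMI, so that outcome was not possible there. The same held for Ddc in clusters 12 and 15. Gch1 was higher with Th in all 3 mice in cluster 2, on 1, 5 and 3 UMIs in the nuclei with Th. In mouse 1 it was 1.17 against 1.12 CPM there, too few UMIs to set the groups apart. In cluster 1 Gch1 was lower in all 3 mice, on 0 UMIs in the 347 nuclei with Th. That cluster held 14 Gch1 UMIs in 4754 nuclei, too few to set the groups apart. Slc18a2 was higher with Th in all 3 mice in clusters 0 (6.37 ± 1.38 against 3.99 ± 0.37 CPM), 1 (10.9 ± 5.46 against 5.07 ± 0.82 CPM) and 12 (15.9 ± 5.35 against 5.50 ± 5.07 CPM). In mouse 2 the values of cluster 1 were 4.69 against 4.19 CPM. The nuclei with Th held 4, 13 and 6 Slc18a2 UMIs by mouse in cluster 1 and 2, 11 and 2 in cluster 12. No share over all genes is given for these clusters, so such directions are values only. After thinning, 2.62, 1.95, 2.31, 1.21 and 3.50% of the nuclei of clusters 1, 2, 4, 5 and 8 had a Th UMI. Shares of that size were not read as expression, so the groups of clusters 1, 2, 4, 5 and 8 are not read as cells with and without Th. In cluster 15, second for Th, none of its 136 nuclei with Th held a UMI of Ddc or Slc6a3. The limit of 3 counts, 2.21% of such nuclei, applies to nuclei with a UMI and not to nuclei that hold the RNA. In cluster 0 the 1717 nuclei with Th held 10 UMIs of Ddc and 4 of Slc6a3.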

How the data were processed

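Olfactory bulb nuclei of 3 mice were sorted for GFP and sequenced with 10x Genomics chemistry (1 library per mouse, 1 group). The deposited files hold UMI counts per gene and nucleus, produced by the authors on the mm10 genome (Cell Ranger 3.0.2 according to the headers). Whether intronic reads were counted is not given in the sources used here. The authors also deposited an annotation with clusters and subclusters, of which 7 numeric columns (other quality, normalised and embedding values) were not used. Of 7718, 29829 and 6876 barcodes, the 5845, 21105 and 4753 retained by the annotation were analysed (58526996, 213891496 and 62929479 UMIs).

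The members and all gene lists were chosen with earlier results of these data known. Counts were summed per mouse and cluster into CPM, clusters with fewer than 10 nuclei in a mouse being left out of orders. Shares were also computed after thinning each nucleus to 3000 UMIs, leaving out the 1154 with fewer. Splits of the cluster richest in Th were tested with edgeR 4.0.16 in R 4.3.3 (filterByExpr, TMM, quasi-likelihood, Benjamini-Hochberg), and the script was tested on simulated data. DESeq2 1.42.0, other scalings, no filter, a limit of 2 UMIs, thinning, a replicate block and leaving out each mouse were alternatives. The replicate numbers pair libraries because both sums of a mouse come from 1 animal: deviations of the same mouse correlated at 0.15, 0.23 and 0.18 in the Th split and 0.17, 0.21 and 0.22 in the Slc6a3 split. CPM in the splits leaves the split gene out of the total. Genes named over all genes were those called whose libraries did not overlap, up to 10 per direction, and for likeness up to 5 genes per member over genes reaching 10 CPM in a cluster. Doublets were addressed only by the scatter gate of the sort that the study's methods describe. An annotated cell type was called "-like" only from its marker list. The 164 nuclei whose barcode occurs in another library were kept. Some genes of the lists are not reported here.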

Additional observations from a re-analysis of the deposited data

Results flagged for a closer look

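The barcodes that Cell Ranger called but the annotation did not retain were not among the analysed nuclei, and they held UMIs of the 5 genes above the limit of 3 UMIs. There were 1873, 8724 and 2123 such barcodes in mice 1, 2 and 3, with median UMIs of 785, 732 and 808. Th stood in them at 32.7, 91.4 and 28.8 CPM, Ddc at 9.06, 8.92 and 5.85 CPM, and Slc18a2 at 17.1, 5.24 and 5.85 CPM. Slc6a3 passed the limit in mouse 2, at 4.39 CPM, and Gch1 in mice 2 and 3, at 2.26 and 2.25 CPM. They were not set against control samples, and what they contain was not tested.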

How the results depend on the processing

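Of 110 levels by cluster, 1 moved by more than 1 SD of the mice when averaged over nuclei (Slc18a2 in cluster 11, 5.15 to 3.54 CPM), 1 with a minimum of 1500 genes (Th in cluster 21, 60.0 to 14.9 CPM) and none with another denominator. The nuclei with several members were 0.713% of a mouse's nuclei, and 3.27% with at least 2 members, 0.0925% with at least 4 and 0.104% after thinning. The share of them in cluster 6 was 64.6% with at least 2 members and 100% after thinning, and their share of cluster 6 (14.5%) became 46.9%, 1.70% with at least 4 and 2.06% after thinning. These follow from the limits and the depth themselves. Leaving out the 164 nuclei with shared barcodes, chosen after seeing the data, moved none of these by more than 1 SD.

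In the Th split, genes called higher numbered 3 without the filter and 1 with the replicate block. Genes called lower numbered 14 without the filter, 9 with DESeq2, 12 with the replicate block, 1 after thinning and 0 to 2 without a replicate. In the Slc6a3 split, genes called higher numbered 16 without the filter, 9 with DESeq2, 13 with the replicate block, 10 at 2 or more UMIs, 3 after thinning and 0 to 1 without a replicate. Genes called lower numbered 33, 16, 25, 19, 33 and 0 to 2 in that order. The cause was not tested. Every called gene kept its direction, but Nos1 fell short after thinning (-1.19) and without mouse 1 or 2, Tpbg after thinning (-0.77) and without each mouse, and Thsd7b and Cdh13 without mouse 1.

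Values of members that were never called changed sign. In the Th split the log2 fold change was 0.081 for Ddc and 0.017 for Slc18a2 after thinning, Ddc ranged from -0.28 to 0.13 and Gch1 from -0.14 to 0.55 without a replicate. In the Slc6a3 split Ddc ranged from -0.040 to 0.34 and Slc18a2 from -0.089 to 0.49 without a replicate. Gch1 could not be fitted after thinning. Fits added after seeing the data gave, with the replicate block, 0.025 for Gch1 in the Ddc split and 0.046 for Slc6a3 in the Slc18a2 split, and for Ddc in the Gch1 split 0.93 after thinning and 0.81 with the replicate block as well, while Slc6a3 could not be fitted there. The replicate block changed 1 call of a member, Slc6a3 in the Gch1 split (-1.97, edgeR adjusted p = 0.0063, and -2.06 to -1.78 without a replicate). With 3 mice and 10.3% to 28.4% of cluster 6 nuclei holding a UMI of Ddc, Slc6a3, Slc18a2 or Gch1, differences near 1 SE could not be resolved.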
